A study of Mus musculus with 6 samples.

Results

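Granzymes and the genes expressed with them in cytotoxic lymphocytes were followed across 6 bulk RNA-seq libraries. The 10 genes, of 55385 mouse genes in the count table, were Gzma, Gzmb, Gzmc, Gzmd, Gzme, Gzmf, Gzmg, Prf1, Nkg7 and Ncr1. They were taken by symbol, and the set was chosen by a measured value, the concentration of Gzmb counts in a single Sox2 knockout library. Gzmb values are therefore given as a description with no test. The libraries came from PDVC57, an established line of mouse squamous cell carcinoma, a cancer of keratinocytes. The labels name 3 libraries with Sox2 knocked out and 3 with Sox2 overexpressed, and the series' design text adds that the cancer cells were recovered from tumours grown from grafts. Its stated question was what Sox2, a transcription factor of stem cells, switches on in tumour stem cells that acts on neutrophils. The guide, the construct, its promoter, the clone, the host mice, their age and the way cancer cells were separated from host cells are not given in the sources used here. Nor do the labels say that the replicates were separate tumours, so p-values measure only the spread between these libraries, which may be technical.

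Cytotoxic T cells and natural killer (NK) cells kill by releasing granules onto a target cell. Perforin opens the target's membrane, and granzymes, serine proteases stored in the same granules, enter and cleave proteins inside. Granzymes A and B are shared by mouse and human, whereas granzymes C to G belong to a rodent gene family next to granzyme B. Tumours hold such lymphocytes in varying number, and keratinocytes are not known as a usual source of this set of genes.

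Gzmb, Gzmc, Gzmd, Gzme, Gzmf and Gzmg lie together on chromosome 14 of GRCm38, all on the minus strand, within chr14:56117626-56262260. The start of their coding sequence is a stretch where they are alike, which bears on how far reads can be told apart. Coding bases 4 to 93 are printed below, with every base that differs from Gzmd in capitals.
Gzmd: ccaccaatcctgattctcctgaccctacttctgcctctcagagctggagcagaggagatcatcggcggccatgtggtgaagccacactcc
Gzmg: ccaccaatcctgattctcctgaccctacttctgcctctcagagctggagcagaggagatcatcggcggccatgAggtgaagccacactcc
Gzme: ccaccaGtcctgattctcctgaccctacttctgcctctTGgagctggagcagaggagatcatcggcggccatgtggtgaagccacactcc
Gzmf: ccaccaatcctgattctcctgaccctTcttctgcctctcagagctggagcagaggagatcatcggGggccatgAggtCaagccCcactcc
Gzmc: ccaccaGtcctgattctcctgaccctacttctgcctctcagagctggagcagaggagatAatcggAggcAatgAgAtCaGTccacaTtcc
Gzmb: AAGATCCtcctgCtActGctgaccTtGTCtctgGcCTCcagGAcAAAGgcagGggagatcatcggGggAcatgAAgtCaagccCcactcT
Of these 90 bases, Gzmg differed from Gzmd at 1, Gzme at 3, Gzmf at 5, Gzmc at 10 and Gzmb at 32. Over the whole coding sequence, Gzmd was 93.3% identical to Gzme, 86.6% to Gzmg, 83.3% to Gzmf, 71.1% to Gzmc and 65.1% to Gzmb. Gzme was thus nearer to Gzmd than Gzmg was, the reverse of the printed stretch. Gzmb and Gzmc were 75.6% identical.

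Reads from near-identical stretches can be assigned to the wrong copy. Of all 31-base words in a gene's transcripts, the share also found in another gene was 38.2% for Gzmd, 42.1% for Gzme, 33.8% for Gzmg, 22.8% for Gzmf and 14.8% for Gzmc. It was 1.35% for Gzmb, 0.392% for Prf1 and 0% for Gzma, Nkg7 and Ncr1. How the authors' counting split shared reads is not given in the sources used here, so counts within the Gzmd to Gzmg group are uncertain by gene. Gzmf also overlaps Gm4022 on the opposite strand, and whether strand was used in counting is not given. Gzmn, a further copy at chr14:56165797-56174599, had 0 counts in all 6 libraries, although 13.6% of its 31-base words occur in another gene.

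The remaining members lie elsewhere in GRCm38. Gzma is at chr13:113093825-113100981 on the minus strand, and Prf1, which encodes perforin, is at chr10:61297833-61304680 on the plus strand. Nkg7, a granule membrane protein, is at chr7:43437073-43438249, and Ncr1, the activating NK receptor NKp46, is at chr7:4337724-4345164, both on the plus strand. All 10 are annotated as protein coding.

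The promoters of 3 members are shown, Gzmb and Gzmd from the same cluster and Prf1 from another chromosome. Members at separate loci had the same order of knockout libraries in the counts below, and so did the summed genes of all white blood cells. Any link of that order to the promoters was not tested. Each is the 250 bases before the RefSeq start on GRCm38.p6, read along the gene's strand. Capitals mark matches on either strand to TGTGGT (the core bound by Runx factors), TGANTCA (the site of AP-1) and TCACAC (the half-site of T-box factors such as T-bet and Eomes).
Gzmb, chr14:56262335-56262584, minus strand: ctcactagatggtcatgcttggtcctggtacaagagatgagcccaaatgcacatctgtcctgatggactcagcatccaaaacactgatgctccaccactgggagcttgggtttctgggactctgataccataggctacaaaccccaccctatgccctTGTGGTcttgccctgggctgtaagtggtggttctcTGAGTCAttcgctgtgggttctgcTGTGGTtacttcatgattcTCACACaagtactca
Gzmd, chr14:56132594-56132843, minus strand: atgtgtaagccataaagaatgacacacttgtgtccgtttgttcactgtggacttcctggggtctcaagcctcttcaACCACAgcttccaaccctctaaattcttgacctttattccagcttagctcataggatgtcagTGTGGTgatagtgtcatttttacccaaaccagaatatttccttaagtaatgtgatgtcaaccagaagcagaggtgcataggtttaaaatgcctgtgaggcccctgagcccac
Prf1, chr10:61297586-61297835, plus strand: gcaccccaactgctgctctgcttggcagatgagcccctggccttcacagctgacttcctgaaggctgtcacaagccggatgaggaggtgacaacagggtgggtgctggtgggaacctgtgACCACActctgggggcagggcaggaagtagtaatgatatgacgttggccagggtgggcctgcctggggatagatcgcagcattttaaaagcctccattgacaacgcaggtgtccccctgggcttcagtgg
TGTGGT was found in the promoter of all 10 members, against 14.0% of 32851 RefSeq promoters of the same length. TCACAC was found in Gzmb, Nkg7 and Ncr1 (12.3% of all promoters) and TGANTCA in Gzmb (6.75%). The last word searched, GGAAG of Ets factors, was found in 8 of the 10 (64.1%). In Gzmb the TGTGGT matches began 93 and 34 bases before the start, the TGANTCA match 58 bases before it and the TCACAC match 15 bases before it. No matches of different words overlapped in these promoters. The 4 words were chosen with the expression values known, the promoters of Gzmc to Gzmg are related copies, and a match is a description of letters.

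Library totals ranged from 31247976 to 38543221 counts over mouse genes, and 3 counts, the most that a count of 0 allows, equal 0.0759 to 0.101 CPM (counts scaled by library size). These limits cover counting error only. The label check held for Sox2, at 1.08 ± 0.377 CPM (SD, n = 3) in the knockout libraries and 103 ± 24.9 CPM (SD, n = 3) in the overexpression libraries. Knockout replicate 3 stood apart for lymphocyte genes, so the values of the members, and of other genes where it moved them by over 1.5 times, are given with and without it. The epithelial genes Krt5 and Krt14, which mark basal keratinocytes, were counted in every library. In knockout replicate 3, however, Krt5 was at 218 CPM, against 772 and 1105 CPM in the other knockout libraries.

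Granzyme A is a tryptase that needs perforin to reach its substrates. Across knockout replicates 1, 2 and 3, Gzma reached 116, 176 and 1429 counts, and across overexpression replicates 1, 2 and 3 it reached 42, 17 and 8. Every knockout library was above every overexpression library, but replicate 1 of the knockout (3.40 CPM) was closer to replicate 1 of the overexpression (1.28 CPM) than to knockout replicate 3 (39.2 CPM). The group means were 16.1 ± 19.99 and 0.686 ± 0.548 CPM (SD, n = 3 each). Of the 10 members, Gzma had the most counts in the overexpression libraries.

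Granzyme B cleaves after aspartate and starts the caspase cascade of apoptosis in the target. Its gene, Gzmb, was counted 239, 414 and 4858 times across the knockout replicates, in the same order, and 1, 0 and 1 times across the overexpression replicates. The knockout libraries were at 7.01, 13.7 and 133 CPM, and the overexpression libraries held no more than 0.0305 CPM, under the limit set by 3 counts. Over the group, Gzmb was at least 505-fold lower with overexpression, counting 3 counts in the shallowest overexpression library as its level, and at least 102-fold lower when knockout replicate 3 was left out. Knockout replicate 3 held 86.5% of the summed knockout level, which is the value that led to the choice of these genes.

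Gzmc, next to Gzmb in the cluster, was the most counted member, and the knockout replicates held 1424, 3064 and 18408 of its counts. The overexpression libraries had 0, 16 and 8 counts. All knockout libraries were thus far above all overexpression libraries, at 41.7, 101 and 505 CPM against at most 0.541 CPM. Gzmc made up 65.1%, 67.5% and 54.5% of the counts of all members in knockout replicates 1, 2 and 3. Exact binomial 95% intervals for these shares, which cover counting error only, as PCR copies were not marked, were 63.0 to 67.1%, 66.1 to 68.9% and 54.0 to 55.1%.

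Granzymes D to G are serine proteases of the same cluster, known from strongly activated lymphocytes and from uterine NK cells. Gzmd was counted 38, 186 and 2261 times across the knockout replicates and 0, 3 and 2 times across the overexpression replicates. Gzme followed at 36, 61 and 973 counts, against 6, 2 and 0. Knockout replicate 3 was 17.1 times the mean CPM of the other knockout libraries for Gzmd and 17.4 times for Gzme, and the overexpression libraries had a few counts or none. Gzmf had 79, 98 and 1624 counts against 2, 0 and 3, and Gzmg 28, 94 and 1296 against 1, 1 and 5. For each of the 4, knockout replicate 3 was the highest library and the groups did not overlap.

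Perforin is needed for granule killing by both T and NK cells. The knockout replicates held 138, 205 and 1728 counts of Prf1, and the overexpression replicates 3, 1 and 3. Its level was 4.04, 6.78 and 47.4 CPM in the knockout libraries and at most 0.0915 CPM in the others. The 2 lower knockout libraries were close to each other, and all 3 were above the overexpression libraries.

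Nkg7 acts in granule release, and Ncr1 recognises ligands on target cells. Nkg7 had 60, 195 and 941 counts in the knockout replicates and 2 in each overexpression replicate. Ncr1 was the least counted member, with 30, 45 and 230 counts against 1, 0 and 1. Both kept the order of knockout libraries seen for the granzymes, replicate 3 highest and replicate 1 lowest, with no overlap between groups.

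**Figure D1:**
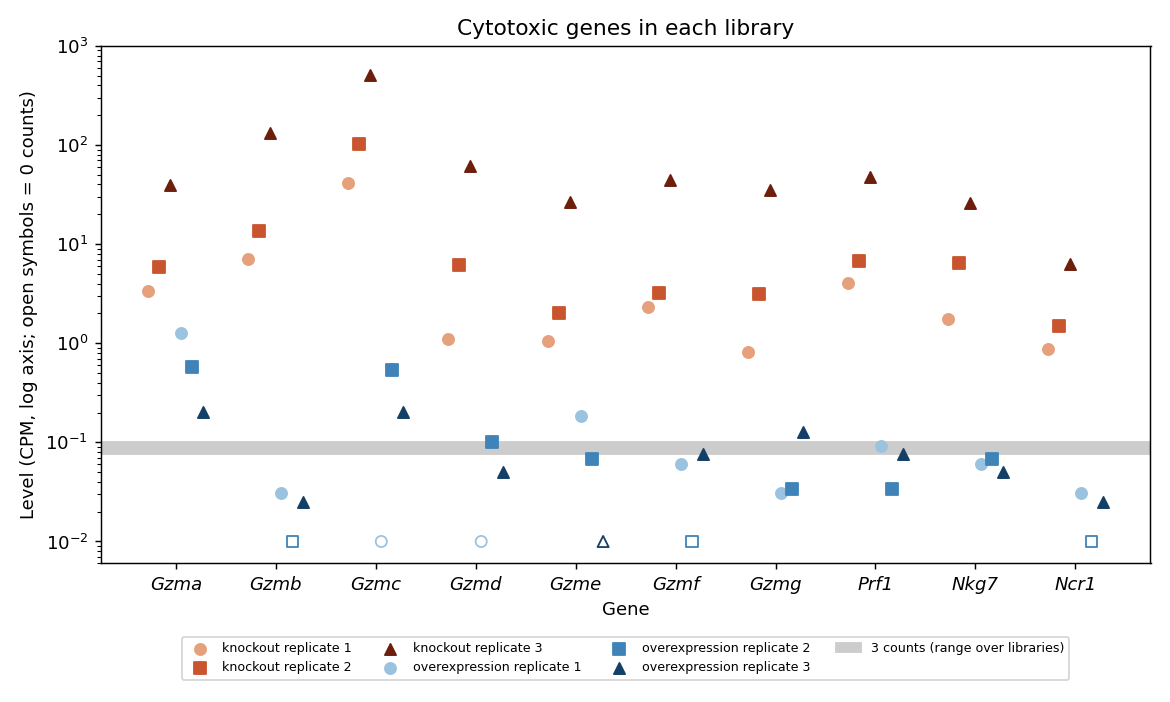
Level of each of the 10 genes (x axis) in each of the 6 libraries (y axis, CPM on a log axis). Red symbols are the knockout replicates, blue symbols the overexpression replicates, open symbols libraries with 0 counts, and the grey band spans the CPM worth 3 counts; knockout replicate 3 is the top symbol for every gene, at 505 CPM for Gzmc.

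Levels per kilobase of transcript allow the genes themselves to be ranked. By mean CPM per kilobase in the knockout libraries, Gzmc was first at 241, Gzmb next at 35.7, and Ncr1 last at 1.88. Gzmc, Gzmb and Ncr1 held these places in each of the 3 knockout libraries. Between them the order changed from library to library: Gzma was at rank 3 in replicate 1, Nkg7 in replicate 2 and Gzmd in replicate 3. The genes between Gzmb and Ncr1 had means of 7.51 (Prf1) to 23.9 (Gzmd) CPM per kilobase, with spreads between libraries as large as the gaps between neighbours. All these means rest mostly on knockout replicate 3. Across replicates 1, 2 and 3, Gzmd was at 1.16, 6.38 and 64.3 CPM per kilobase, Gzmb at 4.88, 9.53 and 92.7, and Gzmc at 46.7, 113 and 564. The overexpression libraries, with 58, 42 and 33 counts over all members, were too low to rank.

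In the comparison of the groups with edgeR's quasi-likelihood test and the Benjamini-Hochberg adjustment, 18.0% of 18504 tested genes were called lower with overexpression at an adjusted p under 0.05. All 10 members were among them. They passed the filter on low counts through the knockout libraries and were chosen with these values known, so nothing is read from that count. In bulk RNA, fewer cells of a type and less RNA per cell cannot be told apart. Groups did not overlap, with the knockout libraries higher, for 26.5% of tested genes and for all 10 members.

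Folds could be fitted for the members with more than 3 counts in an overexpression library. On the log2 scale, Gzmc fell by 9.80 (SE 1.27, adjusted p = 0.000515), and the change was -8.20 without knockout replicate 3. For Gzmg the log2 change was -7.53 (SE 1.59, adjusted p = 0.00699), and -4.77 without that library. For Gzme it was -6.89 (SE 1.53, adjusted p = 0.00886), and -4.19 without it. The smallest change was that of Gzma, -4.57 (SE 1.04, adjusted p = 0.01), which became -2.75 without knockout replicate 3.

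The others had at most 3 counts in every overexpression library, which held for 2.76% of tested genes. Their folds are the mean knockout level over 3 counts in the shallowest of those libraries, so the observed folds were at least as large. Here and elsewhere, these bounds are not confidence limits. Counting error at such low counts and the spread between knockout libraries are not covered. Gzmd was at least 227-fold lower with overexpression (adjusted p = 0.00557), and at least 35.8-fold lower without knockout replicate 3. Prf1 was at least 191-fold lower (adjusted p = 0.00121), or 53.3-fold without that library. Gzmf was at least 164-fold lower (adjusted p = 0.00373), or 27.4-fold without it. The bounds for Nkg7 were 112-fold (adjusted p = 0.00127) and 40.4-fold, and for Ncr1 28.5-fold (adjusted p = 0.00146) and 11.7-fold. Each p is from edgeR's quasi-likelihood test, adjusted over all tested genes.

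Leaving out knockout replicate 3 thus cut the folds by more than 1.5 times, and all 10 members were still called lower, when 15.3% of 19059 tested genes were lower and 8.45% higher. Leaving out overexpression replicate 2 ended the calls of 3 members. The edgeR adjusted p was then 0.0616 for Gzma, 0.0575 for Gzme and 0.0516 for Gzmg. Over all alternative settings it ranged from 4.53e-25 to 0.0616 for Gzma, from 1.04e-30 to 0.0575 for Gzme and from 8.58e-37 to 0.0516 for Gzmg, the lowest being from scaling to the epithelial genes. The other members kept their calls in every alternative that gave them a p, and DESeq2 gave none for Gzmf. All members passed the filter through the knockout libraries and were chosen with these values known. Kept calls therefore only describe the settings, and for Gzmb they are no test.

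The knockout libraries also differed among themselves. The share of a gene's summed knockout CPM that was in replicate 3 had a median of 33.3% over all tested genes, and 7.31% of them were above 50%. Ncr1 had the lowest share of the members, at 72.7%, followed by Nkg7 (75.9%), Gzmc (77.9%), Gzma (80.9%) and Prf1 (81.4%). The Gzmd to Gzmg group was at 89.5% (Gzmd), 89.7% (Gzme), 88.9% (Gzmf) and 90.04% (Gzmg), each above the 86.5% of Gzmb. A share of at least that of Gzmb was found for 31 genes, 0.168% of those tested, so these 4 belonged to the genes most concentrated in the library. As a ratio to the mean of the other knockout libraries, replicate 3 was 5.33 times as high for Ncr1 and 18.1 times as high for Gzmg. Reads shared within the Gzmd to Gzmg group can make their shares alike, and Gzmc of the same cluster was below Gzma and Prf1. All of this describes 1 library, and the set was chosen by the share of Gzmb in it.

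Ptprc encodes CD45, the surface phosphatase of all white blood cells, and it gives a scale for the amount of leukocyte RNA in a library. The knockout replicates held 363, 654 and 3215 counts of it and the overexpression replicates 14, 16 and 20. Ncr1 kept a near constant ratio to it: 8.26, 6.88 and 7.15 counts per 100 Ptprc counts in the knockout replicates, with overlapping exact 95% intervals (5.496 to 12.0, 4.97 to 9.31 and 6.23 to 8.18). Gzmb had 65.8, 63.3 and 151 per 100, so replicates 1 and 2 were alike and replicate 3 was above both, with an interval of 144 to 158. Gzmb was chosen for its concentration in a single knockout library, so its value in replicate 3 is a description and no test.

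The ratio of Gzmd to Ptprc differed in all 3 knockout libraries, at 10.5, 28.4 and 70.3 per 100. Gzmg behaved likewise at 7.71, 14.4 and 40.3, with an interval of 37.8 to 43.0 in replicate 3 that lay clear of the other 2. Gzme (9.92, 9.33 and 30.3) and Gzmf (21.8, 15.0 and 50.5) were highest in replicate 3 as well. Gzmc varied less, at 392, 469 and 573 per 100. Prf1 was at 38.02, 31.3 and 53.7 and Gzma at 32.0, 26.9 and 44.4. Nkg7 was at 16.5, 29.8 and 29.3 per 100, so its replicates 2 and 3 did not differ beyond counting error. The intervals cover counting error in single libraries, and no test between libraries was possible. In the overexpression libraries these ratios rest on 14 to 20 counts of Ptprc, and the members differed. Gzma was at 300, 106 and 40 per 100 there, with exact intervals of 161 to 595, 50.5 to 225 and 15.2 to 94.8, so that relative to Ptprc replicates 1 and 2 were above all knockout libraries. Gzme was at 42.9, 12.5 and 0 per 100, with an interval of 13.5 to 119 in replicate 1, and overlapped the knockout libraries. Gzmb was at most 7.14 per 100, with exact upper limits of 25.9 to 46.9, below its lowest knockout value. Gzmc was at 0, 100 and 40 per 100, also below its knockout values. For Gzmd, Gzmf, Gzmg, Prf1, Nkg7 and Ncr1, the exact interval of every overexpression library overlapped that of a knockout library.

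**Figure D2:**
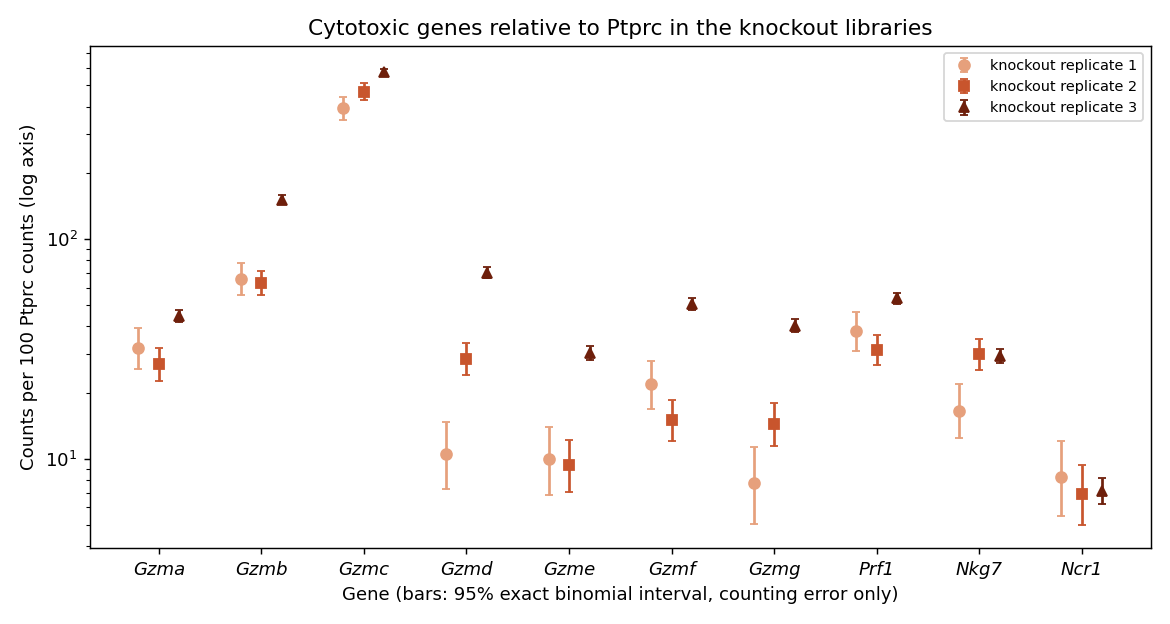
Counts of each gene per 100 counts of Ptprc (y axis, log axis) in the knockout replicates, with exact 95% intervals that cover counting error only. All the granzymes and Prf1 are highest in replicate 3, while Nkg7 is alike in replicates 2 and 3 and Ncr1 stays between 6.88 and 8.26. Gzmb was chosen for its concentration in a single knockout library.

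Other genes of granule-mediated killing were less uniform. Of 16 listed genes for further granzymes, their inhibitors and the granule machinery, 14 were tested, and 5 were called lower with overexpression and 2 higher. Of all tested genes 18.0% were lower and 13.6% higher, and the list's median log2 change was -0.10, against -0.02 over all tested genes. Srgn, the proteoglycan core of the granule, fell from 10.02, 18.9 and 54.9 CPM in the knockout libraries to 0.427, 0.406 and 0.152 CPM (log2 change -6.43, SE 0.75, edgeR adjusted p = 0.000282), and the change was -5.47 without knockout replicate 3. Ctsw, a protease of T and NK cells, fell by 5.85 (SE 0.60, edgeR adjusted p = 0.000134), with a change of -5.08 without that library. Ctsc, which activates granzymes by cutting off a dipeptide, fell by 3.55 on the log2 scale (SE 0.17, edgeR adjusted p = 2.05e-06). Unlike the granzymes it activates, Ctsc was even across the knockout libraries, at 38.4, 41.5 and 43.1 CPM. Srgn, Ctsw and Ctsc were named after their values were seen.

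Serpina3n, an inhibitor of granzyme B in mice, fell from 56.3, 296 and 293 CPM to at most 1.01 CPM (log2 change -8.79, SE 0.86, edgeR adjusted p = 0.000104). Its pattern over the knockout libraries was not that of Gzmb, since replicates 2 and 3 were alike. Serpinb9, the intracellular inhibitor of granzyme B, was at 87.8, 87.9 and 119 CPM in the knockout and 89.0, 61.3 and 50.4 CPM in the overexpression libraries, and was not called. Ap3b1, a sorting adaptor subunit, was not called either (edgeR adjusted p = 0.657).

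Stxbp2, which serves membrane fusion of granules, and Serpinb9b, a paralogue of Serpinb9, were the 2 called higher, with log2 changes of 0.61 (SE 0.17, edgeR adjusted p = 0.0286) and 0.91 (SE 0.30, edgeR adjusted p = 0.0462). The call of Stxbp2 was lost when any 1 of the knockout libraries or overexpression replicate 3 was left out, with an edgeR adjusted p of 0.0689 without knockout replicate 3 and a range of 0.0101 to 0.111 over the alternatives. That of Serpinb9b was lost in 6 alternatives short of a change in sign, the replicate block (0.0572) and upper-quartile scaling (0.0675) among them, and its edgeR adjusted p ranged from 0.0109 to 0.36. Both turned below 0 when the libraries were scaled to epithelial genes, at -0.76 for Stxbp2 and -0.48 for Serpinb9b. Of the granzymes outside the cluster, Gzmk had 7, 3 and 12 counts in the knockout and 3, 0 and 0 in the overexpression libraries and was not tested. Gzmm had 40, 32 and 85 counts against 52, 38 and 54, with overlapping groups and no call; both were named after their values were seen.

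Among ligands and cytokines by which lymphocytes act outside the granule, 3 of 5 tested genes were called lower and none higher. For this and every later list, the shares over all tested genes with all 6 libraries were 18.0% lower and 13.6% higher. Fasl, the death ligand for Fas, had 22, 24 and 155 counts in the knockout replicates and 0, 1 and 1 in the others, at least 18.7-fold lower with overexpression (edgeR adjusted p = 0.00277). Xcl1, a chemokine of NK and CD8 T cells, had 37, 128 and 374 counts against 0, 0 and 1, at least 51.1-fold lower (edgeR adjusted p = 0.000757). Without knockout replicate 3 these bounds were 7.09-fold and 26.2-fold. Ccl5 fell by 1.77 on the log2 scale (SE 0.58, edgeR adjusted p = 0.0473), but its groups overlapped. Without knockout replicate 3 its edgeR adjusted p was 0.134, in a range of 4.30e-06 to 0.138 over the alternatives. Tnfsf10, which encodes TRAIL, was not called.

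T cell genes were lower in the overexpression libraries as well. Of 14 tested genes of the T cell receptor and its partners, 11 were called lower and none higher, with a median log2 change of -4.74. Cd28, the costimulatory receptor, had 62, 99 and 757 counts in the knockout replicates and 0, 0 and 1 in the others, at least 84.9-fold lower (edgeR adjusted p = 0.00129), or 25.1-fold without knockout replicate 3. The kinase gene Lck fell by 4.76 on the log2 scale (SE 0.92, edgeR adjusted p = 0.00466) and the receptor gene Trbc2 by 5.67 (SE 1.20, edgeR adjusted p = 0.00699). Trbc1, the other constant gene of that receptor chain, had a log2 change of -4.002 (SE 0.90, edgeR adjusted p = 0.00983). Without knockout replicate 3 these changes were -3.18 for Lck, -4.31 for Trbc2 and -2.39 for Trbc1. Cd4, Cd5 and Trac were the tested genes of the list that were not called.

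Of 14 tested NK cell genes, 12 were called lower and none higher, with a median log2 change of -6.99, or -4.58 with genes at or under 3 counts set at their bound. Klrb1b had 181, 339 and 1301 counts against 0, 2 and 0, at least 171-fold lower (edgeR adjusted p = 0.000294), or 81.4-fold without knockout replicate 3. Klrk1, which encodes the activating receptor NKG2D, had 123, 251 and 856 counts against 1, 0 and 1, at least 116-fold lower (edgeR adjusted p = 0.000228), or 58.7-fold without it. Itga2 also fell, by 1.91 (SE 0.36, edgeR adjusted p = 0.00392), but it is an integrin of keratinocytes too and was lowest in knockout replicate 3 of the knockout libraries. Eomes, a T-box factor of NK cells, was at 12.3, 7.97 and 16.5 CPM in the knockout and 14.0, 21.3 and 18.6 CPM in the overexpression libraries and was not called.

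Receptors of activated or exhausted T cells gave 7 lower of 10 tested and none higher, with a median log2 change of -4.06. Il2rb, the shared beta chain of the IL-2 and IL-15 receptors, fell by 8.79 (SE 1.11, edgeR adjusted p = 0.000437), from 16.6, 30.8 and 165 CPM to at most 0.214 CPM, and by 7.20 without knockout replicate 3. Ctla4, an inhibitory receptor, fell by 4.52 (SE 0.89, edgeR adjusted p = 0.00504), or by 2.98 without it. Tigit and Tnfrsf9 were not called. Over the 5 lists of cytotoxic and lymphocyte genes beyond the members, 38 of 57 tested genes were lower with overexpression and 2 higher, where 18.0% of all tested genes were lower and 13.6% higher. Without knockout replicate 3, 36 were lower and 3 higher, the latter being Serpinb9b, Tigit and Cd5; over all genes 15.3% were then lower and 8.45% higher. Knockout replicate 3 held over 50% of the knockout level for 40 of the 57, and for 7.31% of all tested genes. Of the listed genes, tested or not, 5 T cell genes and 8 NK cell genes had at most 3 counts in every overexpression library. Tested genes of that kind passed the filter through the knockout libraries and could only be called lower. The counts over the lists are therefore a description.

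By pattern over the 6 libraries, measured as the distance between log2(CPM + 0.5) profiles centred on their own means, the genes closest to Gzmb were Il2rb (0.969), Itgal (1.08), Ptprc (1.34), Rgs1 (1.39) and Prf1 (1.55). Those closest to Gzmd were Gzmg (0.992) and Gzmf (1.27) of the same cluster, then Nkg7 (1.33), Sh2d2a (1.34) and Myo1g (1.34). Gzme was not among these, although it shares 235 31-base words with Gzmd, against 158 for Gzmg and 98 for Gzmf. The distances are descriptions over 6 libraries that share their depth, and reads shared between Gzmd, Gzmg and Gzmf can draw these 3 together.

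Genes of other white blood cells were measured beside these results. Of 8 genes of all or most white blood cells, 7 were called lower. Their summed level was 50.6, 95.2 and 364 CPM in knockout replicates 1 to 3 and 9.43 to 12.7 CPM in the overexpression libraries. The median share in knockout replicate 3 was 71.5% for these genes, 72.9% for T cell genes and 67.3% for NK cell genes. It was 84.0% for the members, a set chosen by this share in Gzmb, so nothing is read from their higher median. Among macrophage and neutrophil genes the median share was 44.5%, with 4 of 8 called lower, or 2 of 8 without knockout replicate 3, when C1qa and Csf3r lost their calls. Lyz2 fell by 3.22 (SE 0.81, edgeR adjusted p = 0.0164), while Csf1r, Cd68 and Ly6g were not called. Their summed level was 15.9 to 35.7 CPM in the knockout and 15.0 to 33.3 CPM in the overexpression libraries. Their part in the results for the granzymes was not tested.

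**Figure D3:**
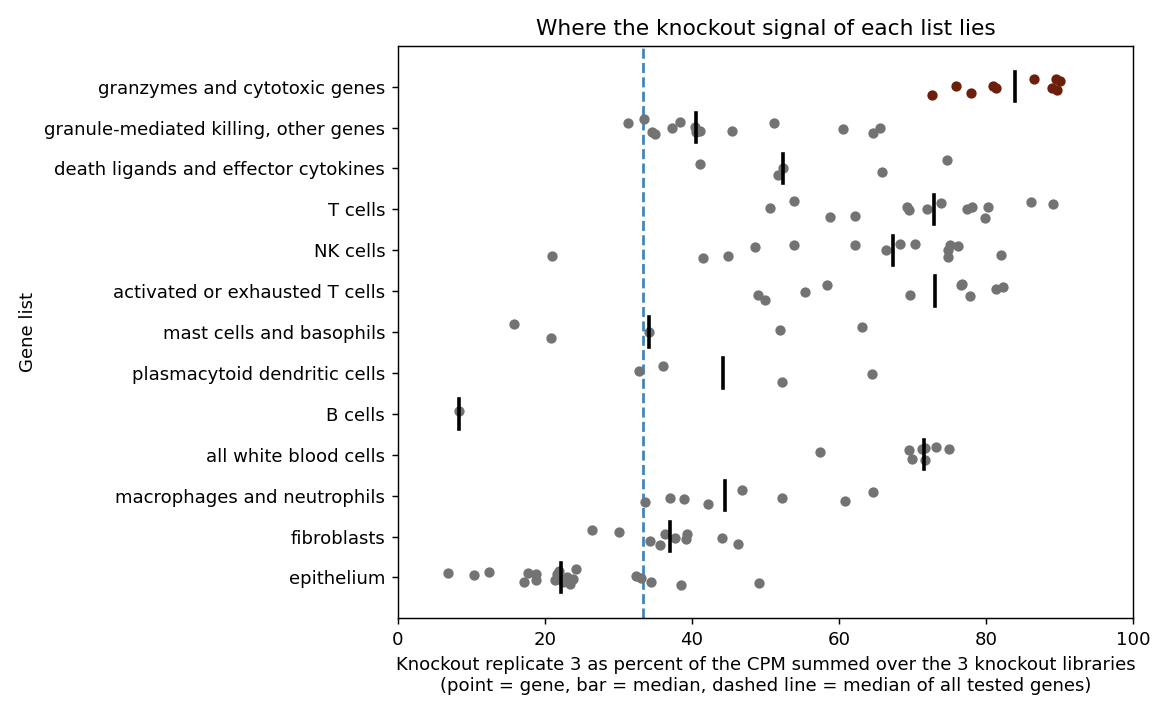
Percent of the knockout CPM, summed over the 3 knockout libraries, that was in knockout replicate 3 (x axis) for each tested gene (points) of each gene list (y axis). Black bars are list medians and the dashed line is the median of all tested genes, 33.3%. The granzymes and cytotoxic genes, in red, lie between 72.7% (Ncr1) and 90.04% (Gzmg), with a median of 84.0%. That set was chosen by this share in Gzmb.

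Mast cells and plasmacytoid dendritic cells can hold granzyme RNA too. Mast cell and basophil genes summed to 22.9, 28.8 and 25.3 CPM in knockout replicates 1 to 3 and to 0.759 to 0.981 CPM in the overexpression libraries, with 5 of 5 tested genes lower. The granule protease Tpsb2 had 116, 52 and 35 counts against 1, 0 and 4. Other mast cell proteases had their lowest knockout value in replicate 3: Mcpt4 had 162, 62 and 3 counts, Cma1 81, 42 and 0, and Cpa3 64, 26 and 6, with at most 2 in any overexpression library. Those 3 passed the filter on low counts when knockout replicate 3 was left out, and were then called lower, so that 8 of 8 tested mast cell and basophil genes were. They were named after their values were seen. Cma1 and Mcpt4 lie on chromosome 14 like the granzyme cluster. Of plasmacytoid dendritic cell genes, Tcf4 was the 1 called lower of 4, and Bst2, Ccr9 and Irf8 were not called. Ms4a1, the tested B cell gene, had 15, 23 and 4 counts against 10, 6 and 8 and was not called. Without knockout replicate 3, 2 B cell genes were tested, and 1 was called lower with overexpression.

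Fibroblast and epithelial genes also moved with the groups. All 10 fibroblast genes were called lower with overexpression, and their summed level was 55994, 83767 and 78180 CPM in the knockout against 255 to 404 CPM in the overexpression libraries. Col1a1, a collagen chain, fell by 7.55 (SE 0.32, edgeR adjusted p = 1.56e-06), with knockout replicates 2 and 3 alike. Epithelial genes summed to 6615, 7542 and 3485 CPM in knockout replicates 1 to 3 and to 12093 to 18142 CPM in the overexpression libraries, with 14 of 20 called higher and none lower. Krt17 was among those called higher, while Krt5, Krt14 and Col17a1 were not called. Knockout replicate 3 was thus the lowest of the 6 libraries in summed epithelial genes and the highest in granzymes, whereas replicate 2 was the highest in fibroblast genes. The part of these other genes in the granzyme results was not tested.

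**Figure D4:**
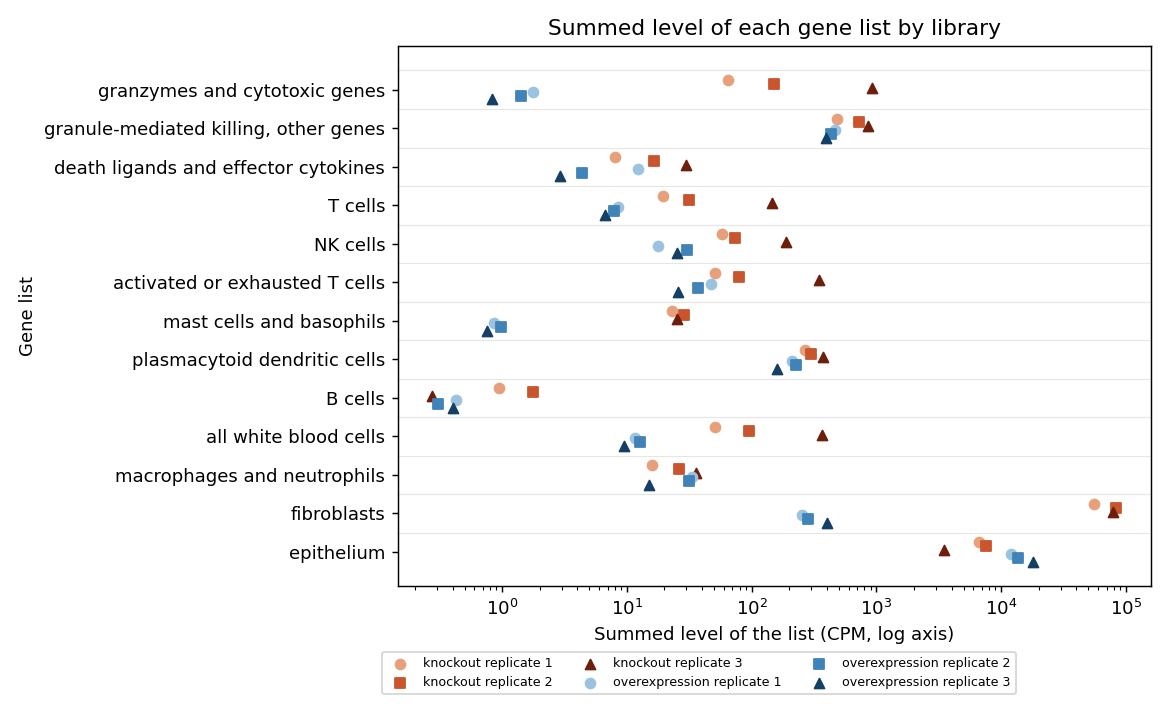
Summed level of each gene list (y axis) in each library (x axis, CPM on a log axis), with knockout replicates in red and overexpression replicates in blue. The granzyme and cytotoxic genes span from 64.1 to 925 CPM within the knockout group, whereas the sum of mast cell and basophil genes stays between 22.9 and 28.8 CPM there. That sum does not hold gene by gene: the mast cell proteases Tpsb2, Mcpt4, Cma1 and Cpa3 were lowest in knockout replicate 3 of the knockout libraries.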

How the data were processed

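Bulk RNA-seq was compared between 3 Sox2 knockout and 3 Sox2 overexpression libraries. The authors deposited 1 table of unnormalized read counts, whole numbers for each gene. The submitters' processing notes name kallisto 0.44.0 and the build mm10 with no role, so whether the whole numbers are rounded estimates is not given in the sources used here. RNA came from a column kit for small samples and a low-input library kit, per the labels' protocols. Of 55481 rows, the 96 naming no mouse gene were dropped; they held 2.23e-05% of the counts or less. Symbols and positions are from GENCODE M21 (55144 IDs matched), promoters from RefSeq, where all 10 members matched.

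Genes were filtered (filterByExpr, minimum count 10, minimum total 15) and normalized with TMM, and 18504 were tested with edgeR 4.0.16 in R 4.3.3 (quasi-likelihood, all 6 libraries in 1 fit, Benjamini-Hochberg over all tested genes, threshold 0.05). Folds are overexpression over knockout, CPM uses TMM-scaled library sizes, and the SE is the log2 change divided by the root of F. The fit was tested on simulated data. Alternatives were RLE and upper-quartile scaling, scaling to the epithelium list, no filter, the replicate number as a block, robust dispersion, DESeq2 1.42.0 and leaving out each library. The members, the 12 further lists and the motifs were chosen with earlier results of these data known. Named genes are the members, Sox2, up to 4 tested genes per list with the highest mean CPM, list genes called against the list's direction and the 5 genes nearest in pattern to Gzmb and to Gzmd. Counts are precise to counting error at 31247976 to 38543221 counts per library. No batch is in the labels.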

Additional observations from a re-analysis of the deposited data

Results flagged for a closer look

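The row for mCherry, a red fluorescent reporter that was left out of the comparisons as it is no mouse gene, had 8 counts in knockout replicate 3 and 1 in knockout replicate 2. The other 4 libraries had 0. The 8 counts are above the 3 counts that a count of 0 allows, in the library with the most granzyme counts. The labels name no reporter for any sample.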

How the results depend on the processing

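Over 129 combinations of a member and an alternative, 126 kept direction and call, 3 lost the call and none changed direction. The members, Gzmb included, were chosen with these values known, so these counts only describe the settings. The members called lower ranged from 7 to 10 when 1 library was left out, and overexpression replicate 2 gave the 7. Over all genes, leaving out 1 library gave 2784 to 3256 lower calls and 1446 to 2599 higher calls, against 3329 and 2519 with all 6. Over the 5 further lists it gave 36 to 44 lower and 0 to 3 higher. Scaling to epithelial genes moved the median log2 change of all genes from -0.02 to -1.36, gave 12924 lower and 283 higher calls (2.14% of calls higher, against 43.1%), left 0 higher in the lists and turned Serpinb9b to -0.48 and Stxbp2 to -0.76. Upper-quartile scaling left 1 list gene higher. The members' median share in knockout replicate 3 was 84.4% without TMM factors, against 84.0%. Same-numbered libraries did not deviate together: the correlations were 0.0508, 0.0223 and -0.0399, and only the knockout and overexpression libraries numbered 1 correlated best with their own number. With the replicate number as a block, 3177 genes were lower and 2416 higher, with 10 members and 38 list genes lower and 2 list genes higher. Depth limits the overexpression libraries, where 6 members have at most 3 counts.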

Other observations

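Some genes usually read as lymphocyte or myeloid genes were counted about as well in the overexpression libraries, where Ptprc had 14 to 20 counts, as in the knockout libraries. Cd5 was named after its values were seen. Tigit, an inhibitory receptor of T and NK cells, had 691, 667 and 440 counts in overexpression replicates 1 to 3 and 328, 232 and 606 in knockout replicates 1 to 3. Eomes had 459, 629 and 736 against 421, 241 and 603, and Cd53, a tetraspanin of white blood cells, 282, 207 and 233 against 180, 235 and 640. None of these was called by edgeR with all 6 libraries. Without knockout replicate 3, Tigit was called higher with overexpression (edgeR adjusted p = 0.0447, in a range of 0.0447 to 0.391 over the alternatives).

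Cd5, a T cell surface receptor, had 102, 112 and 146 counts with overexpression and 11, 8 and 175 in the knockout replicates. Its edgeR adjusted p was 0.457 with all libraries and 0.000204 without knockout replicate 3, when its log2 change was 3.57, higher with overexpression. The adjusted p ranged from 0.000204 to 0.726 over the alternatives. Tnfrsf9, a costimulatory receptor, had 515, 244 and 286 counts with overexpression against 129, 208 and 1815, so 1 knockout library was above and the others below the overexpression libraries. These genes differ from Gzmb, Prf1 and Ncr1, which had at most 3 counts in every overexpression library.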
